A study of Homo sapiens with 4 samples.

Results

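NRF2, the transcription factor encoded by NFE2L2, and 8 genes tied to it were examined in hepatocellular carcinoma cells cultured in low or high glucose. The members were chosen by name, with earlier results of these data known. They are NFE2L2, its inhibitor KEAP1 and the antioxidant targets NQO1, HMOX1, TXNRD1, SRXN1, GCLC, GCLM and OSGIN1. All 9 were found among the 59652 genes of the count table. Huh7 and PLC are wild-type human liver cancer cell lines, and each was kept for 48 h in medium with 5 mM glucose (low) or 25 mM glucose (high), both with fetal bovine serum. The RNA was freed of rRNA and sequenced from directional libraries, with 1 library for each line and glucose level. No condition was replicated, so differences between single libraries have no replicate check, and each line is 1 model.

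NRF2 is made continuously and destroyed continuously, because KEAP1 hands it to a CUL3 and RBX1 ubiquitin ligase. Oxidants and electrophiles modify cysteines of KEAP1, and NRF2 then accumulates, pairs with a small MAF protein and binds antioxidant response elements in its target genes. The factor is thus controlled largely at the level of protein, and the RNA of its targets is the usual readout of its activity. In the liver the pathway maintains glutathione, detoxifies quinones and heme, and is often switched on in tumours. Several of these targets, HMOX1 and the cystine transporter SLC7A11 among them, also answer to other stress factors.

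The promoters of the members are shown first because the antioxidant response element is what a target is expected to carry. RefSeq promoters of GRCh38.p14, from 250 bases before to 50 bases after an annotated start, were listed for 8 members, with 11 promoters in all. HMOX1 had no entry. The core element TGACNNNGC, searched on both strands, was found in 4 of these 11 promoters, which belong to KEAP1, GCLM and TXNRD1, against 13.3% of all 35116 promoters of the same length. The stricter form TGACTCAGC, which is the core with its open letters fixed, was found in 0 of the 11 and in 0.561% of all promoters. The 4 promoters with a match are printed on the strand of the gene, from 120 bases before the start through the first 10 bases of the transcript, with core matches in capitals. They are chr19:10502762-10502891 (minus strand) for KEAP1, chr1:93909421-93909550 (minus strand) for GCLM, and chr12:104215659-104215788 and chr12:104286912-104287041 (plus strand) for the upstream and downstream starts of TXNRD1.
KEAP1: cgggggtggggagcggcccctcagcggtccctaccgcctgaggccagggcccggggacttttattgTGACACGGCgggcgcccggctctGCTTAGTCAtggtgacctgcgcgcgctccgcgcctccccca
GCLM: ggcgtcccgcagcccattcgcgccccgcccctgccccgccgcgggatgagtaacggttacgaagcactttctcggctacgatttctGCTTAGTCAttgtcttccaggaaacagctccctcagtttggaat
TXNRD1 upstream: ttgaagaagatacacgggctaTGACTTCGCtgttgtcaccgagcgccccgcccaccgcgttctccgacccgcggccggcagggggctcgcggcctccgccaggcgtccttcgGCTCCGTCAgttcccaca
TXNRD1 downstream: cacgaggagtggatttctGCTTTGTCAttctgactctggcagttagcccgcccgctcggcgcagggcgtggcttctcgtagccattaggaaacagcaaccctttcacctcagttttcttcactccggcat
KEAP1 and GCLM held the same match, GCTTAGTCA, 31 and 34 bases before their starts. A match is a run of letters and not a measured binding site, and elements outside these windows were not searched.

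Counted reads per library ran from 16049686 (PLC cells at 25 mM) to 30279716 (PLC cells at 5 mM). Levels are given as FPKM, reads scaled to the length of the gene and the total of the library. For the members this length takes in all annotated exon bases, also those that a main transcript may lack. Comparisons of FPKM between genes therefore depend on the annotation, while ratios of 1 gene between libraries do not. For each line FPKM at 25 mM was divided by FPKM at 5 mM, with 0.1 added to both. A gene was called past the thresholds when FPKM was over 0.5 in at least 1 of the libraries compared and the ratio was over 1.5 or under 0.67. The study used the cut-offs 0.5, 1.5 and 0.67 for lncRNAs, with FPKM from StringTie. Their use for all genes, FPKM from gene counts, the rule of at least 1 library and the added 0.1 are choices made here. The 95% interval given with a ratio is exact (Clopper-Pearson), leaves out the added 0.1 and speaks of sampling of reads in those libraries alone. Over all genes tested the median log2 ratio was 0.04 in Huh7 cells and 0.11 in PLC cells. Using TMM factors (edgeR) for scaling shifts the log2 glucose ratio by -0.03 in Huh7 cells and by -0.16 in PLC cells before the 0.1 is added, and by less for genes with few reads such as SRXN1. Of 9 hepatocyte markers, 9 had FPKM over 0.5 in both Huh7 libraries and 8 in both PLC libraries, TTR being the exception. Their summed FPKM was 5219 and 5420 in Huh7 cells at 5 and 25 mM but 762 and 1647 in PLC cells. Of 8 markers of blood, endothelial, stromal and biliary cells, PECAM1 and KRT19 exceeded 0.5 FPKM in Huh7 cells and none did in PLC cells. The summed FPKM of these 8 was 32.6 and 26.6 in Huh7 cells but no more than 0.328 in PLC cells. The part of these marker differences in the results below was not tested. In such bulk RNA, fewer cells that express a gene and less of its RNA per cell cannot be told apart.

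NFE2L2 and KEAP1 stayed inside the thresholds in both lines, while of the 6 antioxidant targets tested 5 passed downwards in PLC cells but 2 in Huh7 cells. At 25 mM, HMOX1 and OSGIN1 passed the thresholds downwards in both lines, and TXNRD1, GCLC and GCLM did so in PLC cells. None of the members passed upwards, a side on which 14.1% of all genes were called in Huh7 cells and 26.2% in PLC cells. In Huh7 cells 2 of the 8 members tested were called lower, against 13.7% of all genes tested in that direction. In PLC cells 5 of the 8 were called lower, against 17.0% of all genes. In both lines together 2 of 8 were called lower, against 3.82% of all genes. The counting interval lay wholly below 1 for 6 members in Huh7 cells (19.4% of all genes) and for 7 in PLC cells (22.7% of all genes). Such an interval narrows as reads increase. Each member tested lay above at least 66.1% of expressed genes in FPKM in every library. The shares over all genes are therefore not a like comparison for the interval. SRXN1 did not reach 0.5 FPKM in any library and was not tested. The median log2 ratio of the 8 members was -0.37 in Huh7 cells and -0.92 in PLC cells. Because the members were chosen with earlier results known, setting them against all genes here and below is a description and not an independent test.

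**Figure D1:**
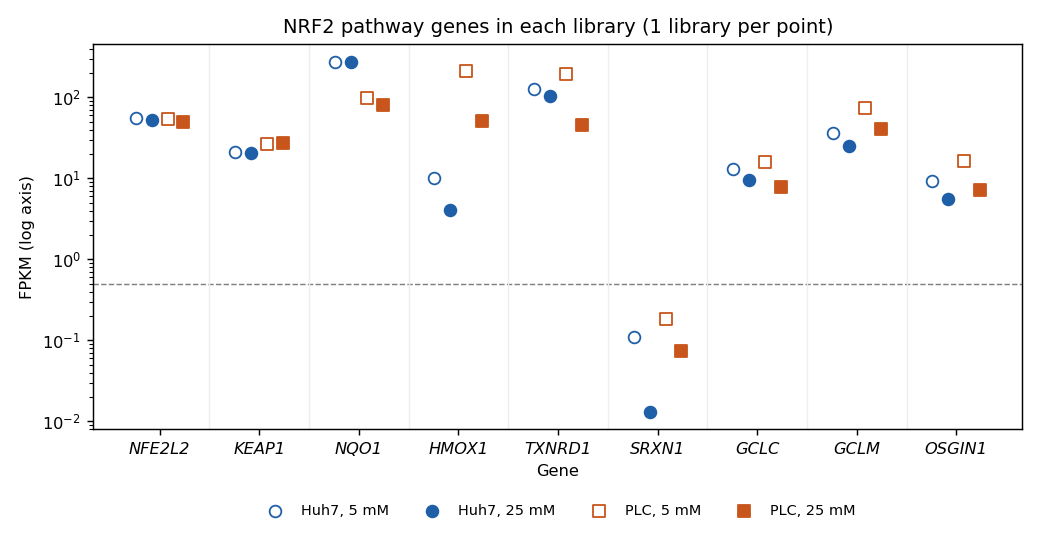
FPKM of the 9 genes (log axis) in each of the 4 libraries, with Huh7 as circles, PLC as squares, 5 mM open and 25 mM filled, and the 0.5 FPKM threshold dashed. NFE2L2 lies between 49.4 and 55.8 FPKM in all 4 libraries, HMOX1 spreads from 4.12 to 212, and SRXN1 lies below the threshold throughout.

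NFE2L2 lies on chromosome 2 from 177227595 to 177392697 (hg38, minus strand). Huh7 cells had 55.8 FPKM in low and 52.3 in high glucose, and PLC cells 54.4 and 49.4. The 4 values lie close together, and high glucose was slightly lower in each line, with ratios of 0.937 (95% interval 0.908 to 0.967) and 0.908 (0.876 to 0.941). Of its 5671 exon bases, 1054 are shared in position with AC019080.1 on the same strand, which had 116 to 310 reads against 4499 to 9349 for NFE2L2. KEAP1, the adaptor that brings NRF2 to its ubiquitin ligase, lies on chromosome 19 from 10486125 to 10503558 (minus strand). It had 21.0 and 20.4 FPKM in Huh7 cells and 26.2 and 27.5 FPKM in PLC cells at 5 and 25 mM. Both glucose intervals of KEAP1 include 1, and its ratio of 1.05 in PLC cells turns to the other side of 1 with TMM scaling (log2 ratio 0.07 and then -0.09). The FPKM of NFE2L2 was 2.66 and 2.56 times that of KEAP1 in Huh7 cells and 2.08 and 1.8 times in PLC cells.

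HMOX1 encodes heme oxygenase 1, which opens heme to biliverdin, iron and carbon monoxide, and lies on chromosome 22 from 35380361 to 35394207 (plus strand). Huh7 cells had 498 reads in low and 285 in high glucose (10.1 and 4.12 FPKM), and PLC cells 14729 and 1898 (212 and 51.4 FPKM). Both high-glucose libraries were below the low-glucose library of the same line, and both PLC libraries were above both Huh7 libraries. High over low glucose was 0.412 in Huh7 cells (95% interval 0.350 to 0.471) and 0.243 in PLC cells (0.232 to 0.255). OSGIN1, an oxidative stress induced growth inhibitor on chromosome 16 from 83931311 to 83966332 (plus strand), had 9.38 and 5.54 FPKM in Huh7 cells and 16.6 and 7.26 FPKM in PLC cells. Its ratios were 0.596 (0.541 to 0.646) and 0.441 (0.401 to 0.477). Of its exon bases, 8.22% are shared with MLYCD on the same strand, and reads there may belong to either gene.

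TXNRD1, the cytosolic thioredoxin reductase, keeps thioredoxin reduced with electrons from NADPH, and lies on chromosome 12 from 104215779 to 104350307 (plus strand). Huh7 cells had 18207 reads in low and 20746 in high glucose (127 and 103 FPKM), and PLC cells 39841 and 4944 (196 and 45.9 FPKM). PLC cells thus held both the highest and the lowest level. The glucose ratio was 0.810 (95% interval 0.794 to 0.826) in Huh7 cells, inside the thresholds, and 0.235 (0.227 to 0.241) in PLC cells. NQO1, a quinone reductase that is a standard NRF2 readout, lies on chromosome 16 from 69706996 to 69726668 (minus strand). Huh7 cells had 277 and 276 FPKM of it, PLC cells 97.0 and 79.6. With ratios of 0.995 (0.976 to 1.01) and 0.821 (0.790 to 0.853), NQO1 was the target whose ratio lay nearest 1 in both lines.

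GCLC and GCLM encode the catalytic and the modifier subunit of glutamate-cysteine ligase, which carries out the first step of glutathione synthesis. GCLC, on chromosome 6 from 53497341 to 53616970 (minus strand), had 12.9 and 9.48 FPKM in Huh7 cells and 15.7 and 7.87 FPKM in PLC cells. Of its exon bases 9.68% are shared in position with other annotated genes, which had at most 96 reads. GCLM, on chromosome 1 from 93885199 to 93909456 (minus strand), had 36.2 and 24.9 FPKM in Huh7 cells and 74.5 and 41.0 FPKM in PLC cells. The high-glucose library was lower for both subunits in both lines. In Huh7 cells the ratios were 0.735 (95% interval 0.693 to 0.776) for GCLC and 0.689 (0.659 to 0.719) for GCLM, neither past the thresholds. In PLC cells both passed, with 0.504 (0.468 to 0.536) for GCLC and 0.550 (0.530 to 0.571) for GCLM. The FPKM of GCLM exceeded that of GCLC in every library, with annotated lengths of 5426 and 8618 bases. It did so by 2.80 and 2.63 times in Huh7 cells and by 4.75 and 5.21 times in PLC cells at 5 and 25 mM. In these single libraries the FPKM of GCLM relative to GCLC thus differed between the lines more than between glucose levels. Protein of the subunits was not measured.

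SRXN1 encodes sulfiredoxin, which repairs overoxidised peroxiredoxins, and lies on chromosome 20 from 646615 to 653200 (minus strand). Huh7 cells had 6 reads in low and 1 in high glucose, and PLC cells 14 and 3, at most 0.183 FPKM. Of its 2528 exon bases, 2292 (90.7%) are shared in position with AL121758.1 on the same strand, which itself had only 6 to 12 reads. Whether reads that touch both genes were dropped in the counting is not given in the sources used here, and the level of SRXN1 cannot be read from these counts. With so few reads the ratio was 0.536 for Huh7 cells (95% interval 0.00257 to 0.976) and 0.615 for PLC cells (0.0745 to 1.45).

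**Figure D2:**
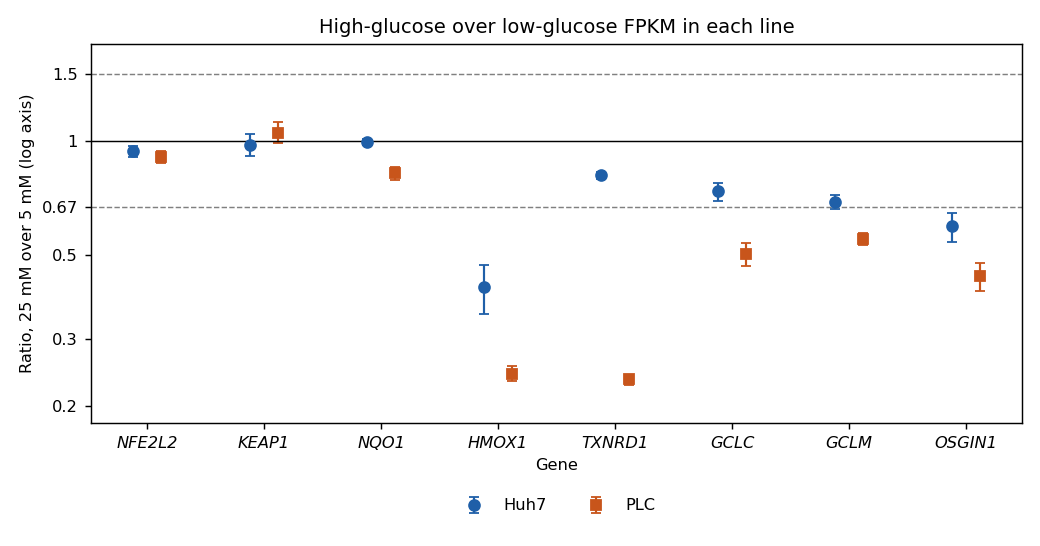
Ratio of FPKM at 25 mM over 5 mM (log axis) for the 8 genes tested, Huh7 as circles and PLC as squares, with 95% counting intervals and the thresholds of 0.67 and 1.5 dashed. NFE2L2, KEAP1 and NQO1 lie inside the thresholds in both lines, and the PLC ratio lies below the Huh7 ratio for every target shown.

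The average glucose change over the lines was tested by an edgeR quasi-likelihood fit of glucose with a term for the line. Adjustment was over all 23217 genes tested. It is called the shared fit below, but it does not ask whether each line changed. A large change in a single line can give a large estimate. For TXNRD1 the estimate of -1.28 went with log2 ratios of -0.30 (Huh7) and -2.09 (PLC). The lines are not replicate cultures, and the fit has 1 residual degree of freedom. Standard errors given here and below with edgeR fold changes were calculated back from the fold change and the F statistic of its test. They are not a separate measure of spread. HMOX1 was the member that passed, lower at 25 mM by edgeR with an adjusted p of 0.0093 and a log2 fold change of -1.76 (standard error 0.25). That is 1 of 8 members tested, against 0.314% of all genes called lower in this fit. At an unadjusted p under 0.05, 5 members were lower, against 4.36% of all genes. The call of HMOX1 was lost when libraries were scaled by their totals (log2 fold change -1.68, adjusted p = 0.0504 by edgeR) and without the block (adjusted p = 1 by edgeR). OSGIN1 had -1.05 (standard error 0.25) with an adjusted p of 0.104 by edgeR, and TXNRD1 had -1.28 (standard error 0.34) with 0.147. GCLM had -0.78 (standard error 0.21, adjusted p = 0.16 by edgeR) and GCLC -0.80 (standard error 0.24, adjusted p = 0.221 by edgeR). For NQO1, NFE2L2 and KEAP1 the log2 fold changes were -0.23, -0.20 and -0.06, with adjusted p-values of 0.879, 0.911 and 0.985 by edgeR. KEAP1 was on the other side of 0 with library totals, at 0.02. All 8 members had a log2 fold change below 0 in this fit, with a median of -0.79 against -0.01 over all genes tested.

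The glucose ratios of the lines were then compared with each other. No residual degree of freedom is left for this comparison, so each line's ratio is set beside the other with a 95% Poisson interval that covers counting error only. The ratio in Huh7 cells was 3.45 times that in PLC cells for TXNRD1 (3.34 to 3.58), 1.69 times for HMOX1 (1.43 to 1.95), and 1.46 times for GCLC (1.34 to 1.6). It was 1.35 times for OSGIN1 (1.2 to 1.53), 1.25 times for GCLM (1.18 to 1.33) and 1.21 times for NQO1 (1.16 to 1.27). The ratio of 25 over 5 mM was thus lower in PLC than in Huh7 cells by more than counting error for all 6 targets tested, as it was for 21.9% of all genes. Counting error is smaller for genes with many reads, such as most of these targets, so that share is not a like comparison. For NFE2L2 (1.03, 0.984 to 1.08) and KEAP1 (0.927, 0.848 to 1.01, on the other side of 1 with TMM scaling) the interval included 1. Counting error is not the spread between cultures, which was not measured. Among the same libraries 4 of the 8 hepatocyte markers tested in PLC cells were called higher at 25 mM (26.2% of all genes) and 0 lower, and the part of this in the result was not tested.

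Huh7 and PLC cells were then compared at each glucose level. NQO1 was the member with the highest level in both Huh7 libraries and in PLC cells at 25 mM, and HMOX1 in PLC cells at 5 mM. NQO1 made up 50.4% and 55.7% of the summed FPKM of the 9 genes in Huh7 cells but 14% and 25.7% in PLC cells. HMOX1 made up 1.84% and 0.832% in Huh7 cells but 30.6% and 16.6% in PLC cells. All 9 summed to 550 and 495 FPKM in Huh7 cells at 5 and 25 mM, and to 692 and 310 FPKM in PLC cells. In Huh7 cells the order of levels was NQO1, TXNRD1, NFE2L2, GCLM, KEAP1 and GCLC at both glucose levels, with HMOX1 and OSGIN1 below. In PLC cells it was HMOX1, TXNRD1, NQO1, GCLM and NFE2L2 at 5 mM, and NQO1, HMOX1, NFE2L2, TXNRD1 and GCLM at 25 mM. With 1 library each, neighbours such as HMOX1 and TXNRD1 in PLC cells at 5 mM, at 212 and 196 FPKM, cannot be ranked against a replicate spread.

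HMOX1 was 20.7-fold higher in PLC cells at 5 mM and 12.2-fold higher at 25 mM. NQO1 went the other way, with a ratio of Huh7 over PLC of 2.85 (95% interval 2.78 to 2.93) at 5 mM and 3.46 (3.34 to 3.58) at 25 mM. In the edgeR fit with the glucose level as a block, 3 of 8 members had an adjusted p-value under 0.05, against 42.9% of all genes (21.8% higher in Huh7 cells and 21.1% lower), so the share of members called was near the background. NQO1 was higher in Huh7 cells by 1.65 on the log2 scale (standard error 0.20, adjusted p = 2.21e-05 by edgeR). HMOX1 had -4.02 (standard error 0.27, adjusted p = 9.81e-08 by edgeR) and GCLM -0.89 (standard error 0.21, adjusted p = 0.00424 by edgeR), both higher in PLC cells. The call of GCLM was lost without the block (adjusted p = 0.0838 by edgeR). At 5 mM 5 members passed the ratio thresholds, against 66.8% of all genes, and at 25 mM 4 did, against 65.0%. NQO1, HMOX1 and GCLM passed at both levels, as did 47.2% of all genes. OSGIN1 had -0.61 (standard error 0.25, adjusted p = 0.0595 by edgeR). NFE2L2, GCLC, TXNRD1 and KEAP1 had log2 fold changes of 0.05, -0.01, 0.26 and -0.38 with adjusted p-values of 0.852, 0.974, 0.563 and 0.195 by edgeR. The 2 libraries of a line are not replicate cultures, so these p-values measure only what the fit leaves over.

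**Figure D3:**
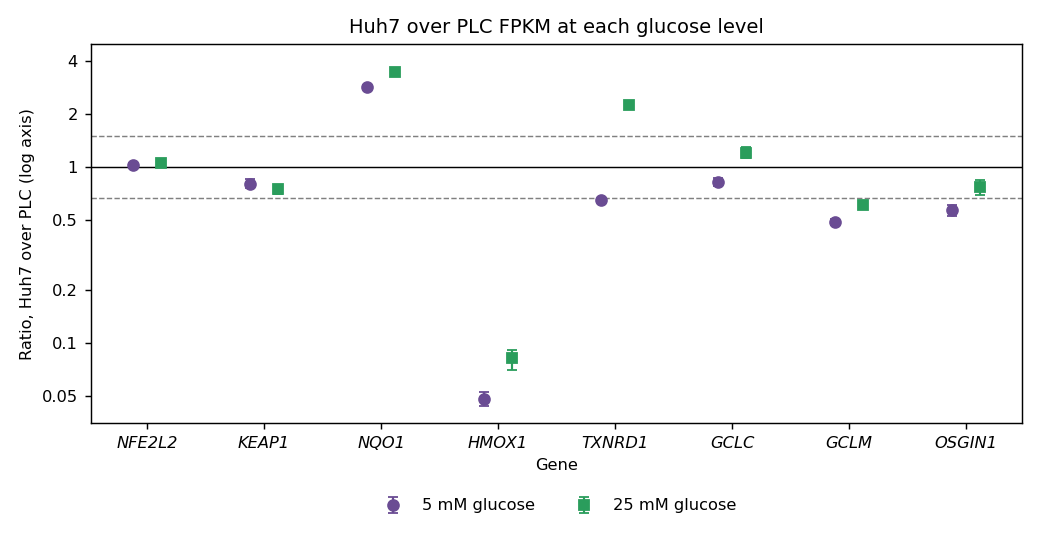
Ratio of FPKM in Huh7 over PLC cells (log axis) at 5 mM (circles) and 25 mM (squares) for the 8 genes tested, with 95% counting intervals and the thresholds of 0.67 and 1.5 dashed. NQO1 lies above and HMOX1 far below 1 at both levels, while TXNRD1 moves from 0.648 at 5 mM to 2.24 at 25 mM.

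Partners and regulators of NRF2 were taken as a list of 15 genes. In Huh7 cells 3 of 15 were called lower at 25 mM and 0 higher, against 13.7% and 14.1% of all genes. In PLC cells 3 of 14 were lower and 2 higher, against 17.0% and 26.2%. The same 3 were lower in both lines, of 14 tested in both, against 3.82% of all genes. In the shared edgeR fit 0 of 15 had an adjusted p-value under 0.05, as did 88 of all 23217 genes. DESeq2 gave 2 (194 of 11064 genes) and limma 3 (333 of 23217 genes). At an unadjusted p under 0.05 by edgeR 3 were lower, against 4.36% of all genes. The 3 were MAFG and MAFK, small MAF proteins that pair with NRF2, and SQSTM1, the autophagy receptor p62 that binds KEAP1. MAFK had 4.54 and 2.84 FPKM in Huh7 cells and 38.1 and 12.3 FPKM in PLC cells at 5 and 25 mM. MAFG had 8.77 and 5.47 FPKM in Huh7 cells and 20.2 and 6.69 FPKM in PLC cells. SQSTM1 had 85.0 and 39.7 FPKM in Huh7 cells and 222 and 141 FPKM in PLC cells. Each of these was lower in the high-glucose library of its line. Their adjusted p-values by edgeR were 0.0899 for MAFK, 0.0981 for MAFG and 0.0529 for SQSTM1. BACH1, the repressor that competes with NRF2 at shared elements, had ratios of 0.833 and 0.8. CUL3 of the ligase had 0.967 and 1.1, and RBX1 1.16 and 1.5. RBX1 and NFE2L3 (1.85) were the genes called higher in PLC cells, RBX1 just past the threshold. For the list as a whole the median log2 ratio was -0.17 (Huh7) and -0.07 (PLC).

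Among 28 other NRF2 targets, 6 of 26 tested were called lower and 2 higher in Huh7 cells, and 9 of 26 lower and 3 higher in PLC cells. Over all genes 13.7% were lower and 14.1% higher in Huh7 cells, and 17.0% lower and 26.2% higher in PLC cells. In both lines 3 of 25 were lower (3.82% of all genes) and 0 higher, namely SLC7A11, ME1 and SLC48A1. SLC7A11, the cystine importer that feeds glutathione synthesis, had 42.1 and 8.37 FPKM in Huh7 cells and 31.2 and 11.1 FPKM in PLC cells. It fell by 1.99 on the log2 scale in the shared fit (standard error 0.24, adjusted p = 0.00287 by edgeR), and 865 of its exon bases are shared in position with SLC7A11-AS1 on the opposite strand. SLC48A1, a heme transporter, had ratios of 0.563 and 0.488, and ME1, which makes NADPH from malate, had 0.658 and 0.538, with adjusted p-values of 0.104 and 0.130 by edgeR. PGD, TKT and TALDO1, enzymes of the pentose phosphate pathway, had ratios from 0.748 to 0.968 in Huh7 cells and from 0.929 to 1.14 in PLC cells, and none of the 3 passed the thresholds. The median log2 ratio of the list was -0.27 for Huh7 and -0.17 for PLC cells.

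The 16 other antioxidant enzymes include superoxide dismutases, catalase and most peroxiredoxins. In Huh7 cells 0 of 15 tested passed, against 14.1% of all genes higher and 13.7% lower. In PLC cells 2 of 16 were higher (26.2% of all genes) and 2 lower (17.0% of all genes). None of them passed in both lines. In the shared edgeR fit 0 of 16 had an adjusted p-value under 0.05, beside 88 of all 23217 genes. DESeq2 and limma also gave 0, beside 194 of 11064 and 333 of 23217 genes. At an unadjusted p under 0.05 by edgeR there were 2, beside 1975 of all 23217 genes. Their median log2 ratio was 0.06 for Huh7 and -0.06 for PLC cells. Of 13 genes of glutathione and heme turnover, 3 of 12 tested were called lower and 0 higher in Huh7 cells (13.7% and 14.1% of all genes). In PLC cells 2 of 13 were lower and 1 higher (17.0% and 26.2% of all genes). In both lines 2 of 12 were lower, against 3.82% of all genes. The same 2, of 13 tested, also passed the shared edgeR test, against 0.314% of all genes called lower. They were CHAC1, which degrades glutathione, at -3.82 on the log2 scale (standard error 0.35, adjusted p = 0.000429 by edgeR), and SLC3A2, the partner subunit of SLC7A11, with -1.51 (standard error 0.24, adjusted p = 0.018 by edgeR). GSS, which completes glutathione synthesis after glutamate-cysteine ligase, had ratios of 0.890 and 0.944. The biliverdin reductase genes BLVRA and BLVRB had 1.16 and 1.4, and 0.608 and 0.828. The constitutive heme oxygenase HMOX2 had 1.15 and 1.49, on the other side of 1 from HMOX1.

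Between the lines, 10 of the 15 partners and regulators, 16 of 27 other targets, 6 of 16 antioxidant enzymes and 11 of 13 genes of glutathione and heme turnover had an adjusted p-value under 0.05 by edgeR, beside 42.9% of all genes. Among those higher in Huh7 cells were BACH2, GSK3B, DPP3, NFE2L3, ME1, TXN, AKR1B10, AKR1C1, AKR1C2, ABCC3, FTH1, ABHD4 and PRDX3. Higher in PLC cells were MAFF, MAFG, MAFK, SQSTM1, SYVN1, NFE2L1, TKT, AKR1C3, ABCC2, CBR1, CYP4F11, PIR, SLC48A1, SOD2, PRDX4, PRDX5, GLRX2 and MSRA, and 11 of the 13 genes of glutathione and heme turnover. The latter were SLC3A2, GSS, OPLAH, CHAC1, CHAC2, GGT1, ANPEP, HMOX2, BLVRA, BLVRB and ALAS1, and the remaining 2, GGCT and FECH, did not pass. BLVRB had 16.1 and 9.77 FPKM in Huh7 cells and 60.2 and 49.9 FPKM in PLC cells, and HMOX2 had 2.66 and 3.08, and 11.7 and 17.5. Like HMOX1, BLVRB and HMOX2 were thus higher in both PLC libraries. AKR1C1, AKR1C2 and AKR1C3 are close paralogues, and how reads common to them were assigned is not given in the sources used here.

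Likeness of pattern was measured as the distance between log2(FPKM + 0.1) values over the 4 libraries after each gene's mean was removed. GCLM and OSGIN1 were the closest pair of members, at 0.388, and 174 other genes of 13752 lay at least as near to GCLM. NFE2L2 and KEAP1 were each other's nearest member at 0.455, with 2892 other genes at least as near to NFE2L2, since many genes are level across these libraries. HMOX1 stood farthest from the rest, with GCLM its nearest member at 3.26, and MAFK the nearest of 67 genes of the other lists at 1.52, then SLC48A1 at 2.06. Other genes at least as near as the nearest member numbered 1517 for HMOX1, 5488 for NQO1, 1231 for GCLC, 104 for TXNRD1 and 71 for OSGIN1. For the nearest list genes, here and below, no such count was made. ABCC2, a transporter that exports glutathione conjugates, was the list gene nearest GCLM at 0.066, followed by OPLAH at 0.339. GSR, which regenerates reduced glutathione, was nearest both GCLC at 0.198 and TXNRD1 at 0.891, and GPX1 came next for both at 0.338 and 0.954. MAFG (0.319) and ABCC2 (0.436) were nearest OSGIN1, and AKR1C1 (0.506) and DPP3 (0.557) nearest NQO1. The near-level NFE2L2 and KEAP1 had PRDX6 (0.149) and TXNRD2 (0.164), and FBXW11 (0.214) and TXN2 (0.222), as their nearest list genes.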

How the data were processed

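RNA-seq was performed by the authors on Huh7 and PLC cells at 5 mM and 25 mM glucose, with 1 library per line and glucose level. The authors deposited raw read counts per gene, not normalized, together with gene lengths. The submitters' processing notes name HISAT2, featureCounts and hg38. Tool versions, the annotation release and whether counting used strand are not given in the sources used here. Samples were grouped by their titles. Of 59657 lines, 5 belonging to a broken ANK2 entry were left out.

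FPKM, ratios and Clopper-Pearson intervals were calculated with Python 3.11.15 and scipy 1.17.1. Counts were tested with edgeR 4.0.16 (filterByExpr, TMM, quasi-likelihood test, Benjamini-Hochberg adjustment over all genes) with cell line or glucose level as a block. DESeq2 1.42.0 and limma 3.58.1 were alternatives, and the code was tested on simulated data. The other alternatives were another added constant, other filters on FPKM or counts, other scalings and other ratio thresholds.

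The members and lists were chosen with earlier results of these data known. Named genes are the 9 members, list genes with an adjusted p-value under 0.05 in either fit, otherwise the 3 list genes with the largest mean log2 ratio among those past the thresholds in both lines, and the nearest genes by pattern. Further list genes named for their place in the pathway or their calls (BACH1, CUL3, RBX1, PGD, TALDO1, GSR, HMOX2, BLVRA, BLVRB, GSS, GGCT, FECH, GPX2, PRDX1) and the markers TTR, PECAM1 and KRT19 were chosen after their values were seen. A list gene that the rule names is not reported here.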

Additional observations from a re-analysis of the deposited data

Results flagged for a closer look

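TXNRD1 and GCLC stood on opposite sides of 1 in the comparison of the lines at the 2 glucose levels, with counting intervals that excluded 1 at both. The ratio of Huh7 over PLC cells for TXNRD1 was 0.648 (95% interval 0.636 to 0.659) at 5 mM and 2.24 (2.17 to 2.31) at 25 mM. For GCLC it was 0.825 (0.783 to 0.866) and 1.2 (1.12 to 1.3). The difference between the glucose levels was not tested, since each ratio rests on 1 library per line.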

How the results depend on the processing

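In Huh7 cells 2 members passed the thresholds, which became 1 with a ratio over 2 or under 0.5 and 6 when the counting interval had to exclude 1. In PLC cells 5 became 3 with a ratio over 2 or under 0.5. All other alternatives left these counts within 1.5 times. In the shared edgeR fit 88 genes and 1 member had an adjusted p-value under 0.05. Library totals gave 19 and 0, no filter on low counts 526 and 4, at least 10 counts in every library 27 genes, no block 0 and 0, DESeq2 194 and 3, and limma 333 and 3. At an unadjusted p under 0.05 the fit without the block had 52 genes and that with library totals 1900. Between the lines 9969 genes passed, and 6340 with at least 10 counts in every library, where fewer genes were tested. At 5 mM alone 5 members passed the thresholds between the lines, against 3 at both levels. The log2 fold change changed side for KEAP1 (0.02 with library totals) in the shared fit, and between the lines for GCLC (0.01 without a filter and 0.03 with at least 10 counts) and TXNRD1 (-0.12 without the block), none of them called. The adjusted p-value of HMOX1 in the shared fit ran from 2.82e-09 to 1 over 7 alternatives and was under 0.05 in 5. Those of TXNRD1 and GCLM were under 0.05 in 2 of 7 and that of OSGIN1 in 3 of 7. Apart from those named and their construction, the cause was not tested. The block on the line pairs the libraries of each line. The labels give no replicate numbers, so no replicate block could be fitted. Leaving out replicates was not possible with 1 library per group. SRXN1, with 1 to 14 reads, had too few for any test.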

Other observations

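A few genes of the list of other NRF2 targets had patterns unlike the members and were chosen after their values were seen. GPX2, a glutathione peroxidase, had 4.62 and 5.06 FPKM in Huh7 cells and 0.947 and 9.02 FPKM in PLC cells at 5 and 25 mM, a ratio of 8.71 in PLC cells (43 and 217 reads), opposite in direction to the targets above. In the shared fit it had 1.53 on the log2 scale (standard error 0.59, adjusted p = 0.439 by edgeR). Also called higher in PLC cells at 25 mM were PRDX1 (ratio 1.51) and AKR1B10 (1.94, with 12 and 15 reads). In Huh7 cells CBR1 and AKR1C3 were called higher, each with a ratio of 2. The aldo-keto reductases AKR1C2 and AKR1C3 stood apart by line. AKR1C2 had 95.2 and 77.8 FPKM in Huh7 cells at 5 and 25 mM, against 18 and 4.73 in PLC cells. AKR1C3 had 0.514 and 1.13 FPKM in Huh7 cells, against 166 and 128 in PLC cells.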
